A study of Mus musculus with 30 samples.

Results

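Collagens, laminins and the matrix proteins that fibroblasts secrete were followed in hippocampal RNA of TIMP2 KO and WT mice. The 42 genes were taken by name from a list of basement membrane, collagen and meningeal fibroblast matrix genes, and all 42 were found among the 49315 genes of the count table. Each passed the filter on low counts, which kept 16486 genes. The mice were C57BL/6J by their labels and the hippocampi came from 13 TIMP2 KO mice, of which 6 were male and 7 female, and from 17 WT mice, of which 10 were male and 7 female. The KO line was a constitutive knockout from a commercial supplier and its controls were WT littermates, and the labels give no age for these mice. Mice are called by the number in their label, and nothing in the labels gives a harvest date or litter.

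TIMP2 is a secreted inhibitor of metalloproteinases, the enzymes that cut collagens, laminins and other matrix proteins outside the cell. In brain, the basement membrane around vessels and under the pia is built from type IV collagen and laminin networks joined by nidogens and by the heparan sulphate proteoglycans perlecan and agrin. Fibrillar collagens, elastic fibres and small leucine-rich proteoglycans lie mostly in the meninges and around larger vessels, where fibroblasts make them. RNA levels say how much message a tissue holds and not how much protein is deposited or cut.

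Counts on genes ranged from 18345517 to 41081083 per TIMP2 KO mouse and from 19445246 to 32098386 per WT mouse. Levels are given as CPM, a gene's counts relative to the total of its library after scaling by TMM factors. Timp2 itself ran from 130 to 171 CPM in TIMP2 KO mice and from 256 to 380 CPM in WT mice, so the groups did not overlap. The lists of marker genes used to check the tissue gave sums of 1367 to 1733 CPM for hippocampal neuron markers in TIMP2 KO mice and 1383 to 1632 CPM in WT mice. The choroid plexus markers stood apart. Their sum reached 740 CPM in a TIMP2 KO mouse and at most 72.3 CPM in WT mice. The lowest sums were 34.4 and 29.0 CPM, and the medians lay closer together, at 42.9 CPM in TIMP2 KO and 38.6 CPM in WT mice. Of the 8 tested markers of that list, 6 had an unadjusted p under 0.05 in edgeR's test. All 6 were higher in TIMP2 KO, against 2.47% of all genes tested, and 1 had an adjusted p under 0.05.

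The members spanned a wide range of levels. Per kilobase of exon, the highest was Sparc, a secreted collagen-binding glycoprotein, at 71.7 CPM per kb over all mice. Agrn, which encodes the proteoglycan agrin, followed at 15.2 CPM per kb and Dcn, which encodes decorin, at 7.88 CPM per kb. Among the collagens, the transmembrane collagen Col25a1 led at 5.99 CPM per kb, ahead of Col4a2 at 4.85 and Col4a1 at 3.95 CPM per kb. The laminin chain with the highest level was Lamb1 at 3.39 CPM per kb, and the fibrillar collagen with the highest level was Col5a1 at 0.582 CPM per kb. Col6a1 led the filament, network and fibril-associated collagens at 2.87 CPM per kb. The lowest level was that of Col6a3, at 0.122 CPM per kb, beside Col8a1 at 0.122 CPM per kb. Col8a1 had as few as 9 counts in a mouse, and the other 41 members had at least 10 counts in every mouse.

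The starts of 4 members are shown because they stand for the patterns described in the results: Col8a1 had the smallest p between genotypes, Col3a1 is a fibrillar collagen, and Col6a2 and Col23a1 belonged to the members that moved together most closely. Each line gives the 250 bases before the start from RefSeq (GRCm38.p6), 5′ to 3′ on the strand of the gene. Capitals mark matches on either strand to the letters TATAAA of the TATA box, the letters CCAAT of the CCAAT box and the letters GGGCGG of the GC box. They come from chr16:57754738-57754987 on the minus strand (Col8a1), chr1:45311288-45311537 on the plus strand (Col3a1), chr10:76623631-76623880 on the minus strand (Col6a2) and chr11:51289670-51289919 on the plus strand (Col23a1), and none overlaps an annotated exon of GENCODE M21.
Col8a1: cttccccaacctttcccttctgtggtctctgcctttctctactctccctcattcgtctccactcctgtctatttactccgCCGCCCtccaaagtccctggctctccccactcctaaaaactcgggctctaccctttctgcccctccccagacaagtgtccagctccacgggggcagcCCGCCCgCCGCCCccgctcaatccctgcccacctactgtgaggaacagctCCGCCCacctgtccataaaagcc
Col3a1: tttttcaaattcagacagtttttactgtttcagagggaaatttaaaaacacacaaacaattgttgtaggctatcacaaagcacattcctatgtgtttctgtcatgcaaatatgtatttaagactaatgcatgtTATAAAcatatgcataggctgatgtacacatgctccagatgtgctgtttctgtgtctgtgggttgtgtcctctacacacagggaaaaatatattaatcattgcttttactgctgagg
Col6a2: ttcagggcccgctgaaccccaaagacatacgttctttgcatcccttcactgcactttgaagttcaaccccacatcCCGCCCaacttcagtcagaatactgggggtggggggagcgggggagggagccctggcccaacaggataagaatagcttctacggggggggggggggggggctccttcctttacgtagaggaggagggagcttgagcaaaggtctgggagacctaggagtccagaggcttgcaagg
Col23a1: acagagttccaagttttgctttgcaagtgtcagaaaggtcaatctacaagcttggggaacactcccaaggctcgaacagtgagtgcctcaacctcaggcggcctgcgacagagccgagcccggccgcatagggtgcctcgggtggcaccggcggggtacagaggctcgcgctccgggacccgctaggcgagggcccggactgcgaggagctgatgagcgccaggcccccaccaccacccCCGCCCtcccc

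The Col8a1 window held 4 GC box matches and 10 CpG, and the Col3a1 window held 1 TATA box match and 0 CpG. Windows were used for 30 of the members, with 36 windows in all. Those on chromosome 18, where Lama3 lies, were left out for the members but kept among all windows. Of these, 61.1% held the GC box letters, against 32.7% of the 32850 windows in the table. The TATA box letters were in 8.33% of the member windows and in 12.4% of all windows, and the CCAAT box letters in 27.8% and 33.9%. The median GC content was 60.6% in the member windows and 52.4% in all windows. The starts of Col4a1 and Col4a2 lie on opposite strands of chromosome 8 at 11312826 and 11312805, so that their first 22 bases overlap.

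In the comparison of TIMP2 KO with WT hippocampi, 1 of the 42 members was a DEG at an unadjusted p under 0.05, against 5.03% of all genes tested. It was Col8a1, and it was higher in TIMP2 KO, as were 2.47% of all genes. No member was lower in TIMP2 KO at that threshold, against 2.56% of all genes. After Benjamini-Hochberg adjustment of the edgeR quasi-likelihood p over all genes, 0 members had an adjusted p under 0.05, against 0.0546% of all genes, and the smallest adjusted p of a member was 0.952. DESeq2 and limma voom each called 0 members at an unadjusted p under 0.05, against 3.13% and 5.82% of all genes. With a mouse left out, edgeR called 0 members without mouse 11, 3 without mouse 7 (Bgn, Col15a1 and Col8a1) and 2 without mouse 14, 16, 18, 20 or 25. Of all genes, 5.12% were called without mouse 11, 5.54% without mouse 7 and between 4.28% and 5.60% in the other fits named. In a bulk sample, fewer cells of a type and less RNA per cell cannot be told apart.

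The differences were small in most members. The log2 fold change lay within 0.1 of 0 in 35 members and within 0.2 in 41. In all, 19 members were higher and 23 lower in TIMP2 KO, and the median log2 fold change was -0.01, beside 0.00 over all genes tested. The 95% interval of the log2 fold change stayed inside plus or minus 0.25 in 20 members and inside plus or minus 0.5 in 40, so a change of the message by more than these sizes was outside the interval for those genes. The members whose interval reached beyond 0.5 on either side were Col3a1, from -0.60 to 0.22, and Col8a1, from 0.06 to 1.16.

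**Figure D1:**
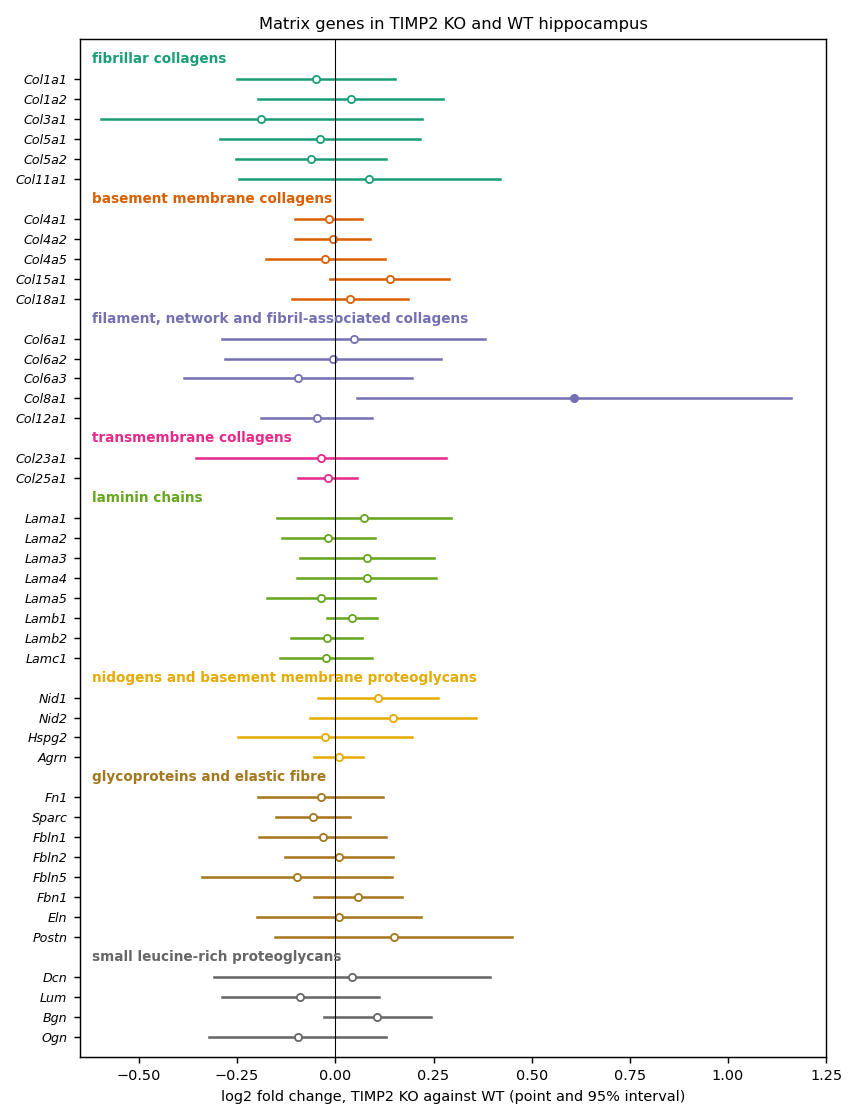
Log2 fold change of TIMP2 KO against WT (x axis) for the 42 matrix genes, grouped by role, from edgeR's quasi-likelihood fit on 30 mice. Points are estimates, lines are 95% intervals, and the filled point is the 1 gene with an unadjusted p under 0.05, Col8a1 at 0.61, while the other 41 estimates lie within 0.2 of 0.

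Col8a1 (ENSMUSG00000068196, GRCm38 chromosome 16, 57624258 to 57754737, minus strand) encodes a short-chain collagen that forms hexagonal networks. In TIMP2 KO mice it ran from 0.468 CPM through a median of 0.747 to 4.65 CPM, and in WT mice from 0.369 through 0.827 to 1.12 CPM. The WT median was thus above the TIMP2 KO median, while the mean was 1.16 ± 1.11 CPM in TIMP2 KO (SD, n = 13) and 0.794 ± 0.232 CPM in WT mice (SD, n = 17). This gave a log2 fold change of 0.61 (standard error 0.27, unadjusted p = 0.0320, adjusted p = 0.952 in edgeR's quasi-likelihood test). Mouse 11, a TIMP2 KO female, held the value of 4.65 CPM, and the next highest mouse had 1.55 CPM. The highest WT mouse was exceeded by 4 TIMP2 KO mice (1, 5, 10 and 11), and the other 9 overlapped with the WT mice. Without mouse 11 the log2 fold change of Col8a1 was 0.12 (unadjusted p = 0.521). The same mouse had the highest mean of the choroid plexus markers, 3.71 on the log2 CPM scale, where the other mice lay between -0.38 and 2.46. With that mean as a covariate the log2 fold change of Col8a1 was -0.11 (unadjusted p = 0.580).

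The fibrillar collagens form the rope-like fibres of connective tissue. Of the 6, 2 were higher and 4 lower in TIMP2 KO, with log2 fold changes between -0.19 and 0.09 and none called. Col1a1, a chain of type I collagen, ran from 2.73 through a median of 3.54 to 6.57 CPM in TIMP2 KO and from 3.07 through 3.79 to 4.52 CPM in WT mice. Col3a1, the chain of type III collagen, ran from 0.574 through 1.37 to 3.13 CPM in TIMP2 KO and from 0.758 through 1.58 to 4.38 CPM in WT mice. The Col1a1 values were more spread in TIMP2 KO, where 2 mice lay above the highest WT mouse and 5 below the lowest, and for Col3a1 1 TIMP2 KO mouse lay below the lowest WT mouse. With the choroid plexus mean as a covariate, both were lower in TIMP2 KO at an unadjusted p under 0.05 in edgeR, Col1a1 by a log2 fold change of -0.20 (p = 0.0397) and Col3a1 by -0.47 (p = 0.0255), with adjusted p of 0.998 for each. These 2 were the members called in that fit, against 4.40% of all genes. The covariate itself averaged 1.37 log2 CPM in TIMP2 KO and 0.79 in WT mice, and its 2 farthest mice, 5 and 11, were TIMP2 KO. Its r with Col1a1 was 0.44, or 0.06 without those mice, and its r with Col3a1 was 0.29, or -0.05 without them. Col5a1, which encodes a chain that starts fibrils, had 4.87 ± 1.23 CPM in TIMP2 KO (SD, n = 13) and 4.99 ± 1.28 CPM in WT mice (SD, n = 17).

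Type IV collagen is the sheet-forming collagen of every basement membrane. Col4a2 ran from 28.6 through a median of 31.4 to 39.8 CPM in TIMP2 KO and from 25.4 through 32.8 to 36.7 CPM in WT mice, with a log2 fold change of -0.01 (95% interval from -0.10 to 0.09). Col4a1 had a log2 fold change of -0.02 and an interval from -0.10 to 0.07. The groups overlapped for both chains, with mouse 18 above the highest WT mouse in each. Col15a1, which encodes a collagen that links basement membranes to the tissue under them, had the second smallest p. It ran from 2.59 through 3.43 to 4.45 CPM in TIMP2 KO and from 2.60 through 3.07 to 3.92 CPM in WT mice (log2 fold change 0.14, standard error 0.07, unadjusted p = 0.0718 in edgeR's test). In 5 of the 30 fits that left out a mouse, its unadjusted p was under 0.05, the lowest being 0.0241 without mouse 25. Col18a1, the precursor of endostatin, and Col4a5 had log2 fold changes of 0.04 and -0.03.

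Laminins are cross-shaped trimers of an alpha, a beta and a gamma chain. Of the 8 chains, 4 were higher and 4 lower in TIMP2 KO, none was called, and the log2 fold changes lay between -0.04 and 0.08. Lamb1, the beta chain at the highest level per length, ran from 30.5 through 34.0 to 39.0 CPM in TIMP2 KO and from 29.7 through 33.5 to 36.0 CPM in WT mice. Its log2 fold change was 0.04 with a standard error of 0.03. Lama1, Lama3 and Lama4 had the highest fold changes of the alpha chains, 0.07, 0.08 and 0.08 on the log2 scale.

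Nidogens bridge the laminin and type IV collagen networks. Nid1 ran from 3.52 through a median of 5.26 to 5.99 CPM in TIMP2 KO and from 2.86 through 4.62 to 5.87 CPM in WT mice (log2 fold change 0.11, standard error 0.08, unadjusted p = 0.157). Nid2 ran from 2.29 through 2.85 to 3.78 CPM in TIMP2 KO and from 1.38 through 2.58 to 3.85 CPM in WT mice (log2 fold change 0.15, standard error 0.10, unadjusted p = 0.167). The lowest mouse of either gene was WT, and the groups overlapped. Of the exonic bases of Nid2, 8.45% overlap Rtraf on the opposite strand, and the strand setting of the counting is not given in the sources used here, so its counts are uncertain. Agrn had 142 ± 10.6 CPM in TIMP2 KO (SD, n = 13) and 141 ± 6.91 CPM in WT mice (SD, n = 17), and Hspg2, which encodes perlecan, had a log2 fold change of -0.03.

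Among the glycoproteins and elastic fibre genes, 4 were higher and 4 lower in TIMP2 KO and none was called. Sparc ran from 244 through a median of 263 to 297 CPM in TIMP2 KO and from 227 through 289 to 316 CPM in WT mice (log2 fold change -0.06, standard error 0.05). The lowest and the highest mouse were both WT. Fn1, which encodes fibronectin, had a log2 fold change of -0.04, Eln, which encodes elastin, of 0.01, and Fbn1, the fibrillin of elastic microfibrils, of 0.06. Fbn1 shares 20.1% of its exonic bases with Gm9913 on the opposite strand, so its counts are uncertain too.

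The small leucine-rich proteoglycans bind collagen fibrils and set their spacing. Bgn, which encodes biglycan, ran from 8.15 through 11.0 to 13.9 CPM in TIMP2 KO and from 8.34 through 10.2 to 13.1 CPM in WT mice (log2 fold change 0.11, standard error 0.07, unadjusted p = 0.121). Dcn ran from 5.74 through 49.8 to 65.6 CPM in TIMP2 KO and from 27.0 through 42.4 to 66.1 CPM in WT mice (log2 fold change 0.04, standard error 0.17). The value of 5.74 CPM was that of mouse 18, a TIMP2 KO male, and the next lowest TIMP2 KO male had 35.7 CPM. Without mouse 18 the log2 fold change of Dcn was 0.15. Mouse 18 also had the lowest median correlation with the other mice over all genes tested, 0.990, where the others lay between 0.991 and 0.993.

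Col6a1, a chain of the beaded filaments of type VI collagen, had 12.8 ± 4.20 CPM in TIMP2 KO (SD, n = 13) and 12.4 ± 4.47 CPM in WT mice (SD, n = 17). Col25a1, a neuronal transmembrane collagen, had 77.0 ± 5.93 and 78.0 ± 5.72 CPM. Neither differed by more than the spread between mice.

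Genes of the matrix beyond the 42 were read from further lists. Of 22 other collagens and laminins tested, 0 were called by edgeR's test at an unadjusted p under 0.05, against 5.03% of all genes tested. Their median log2 fold change was 0.03. DESeq2 and limma voom called 0 of them as well, against 3.13% and 5.82% of all genes. Of 30 other matrix glycoproteins tested, 0 were called, with a median of -0.00, and DESeq2 and limma voom called 0. Of 27 genes for collagen synthesis and cross-linking, 1 was called by edgeR, where 5.03% of all genes were. It was P4ha1, a subunit of the prolyl hydroxylase that stabilizes the collagen triple helix, at 55.9 ± 5.37 CPM in TIMP2 KO (SD, n = 13) and 52.3 ± 4.39 CPM in WT mice (SD, n = 17). In log2 units it was 0.10 higher in TIMP2 KO (standard error 0.04, unadjusted p = 0.0334, adjusted p = 0.952 in edgeR with Benjamini-Hochberg adjustment), and DESeq2 called 1 gene of that list and limma voom 0. Without mouse 7, 8, 18, 20, 27 or 29 the unadjusted p of P4ha1 in edgeR was between 0.0528 and 0.0922.

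Mice of both sexes were used, and the interaction of sex and genotype tests whether the difference between TIMP2 KO and WT was unlike in males and females. It had an unadjusted p under 0.05 for 3 of the 42 members, against 2.57% of all genes tested, and an adjusted p under 0.05 for 0 members, against 0% of all genes (edgeR's quasi-likelihood test). DESeq2 called 3 members as well, against 1.68% of all genes. The 3 were Col1a2, Lum and Postn, and in each the log2 fold change was lower in males than in females.

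Col1a2, the second chain of type I collagen, ran in females from 4.94 through a median of 5.32 to 8.88 CPM in TIMP2 KO and from 3.92 through 4.59 to 5.86 CPM in WT mice. In males it ran from 3.57 through 4.71 to 5.16 CPM in TIMP2 KO and from 3.40 through 5.16 to 8.91 CPM in WT mice. The groups overlapped in both sexes. The log2 fold change was 0.33 in females alone (unadjusted p = 0.0212) and -0.25 in males alone (unadjusted p = 0.119), and the interaction was -0.58 (standard error 0.22, unadjusted p = 0.0120, adjusted p = 1.00 in edgeR). With a mouse left out the interaction ranged from -0.65 to -0.44, with an unadjusted p of at most 0.0406 in edgeR. Mouse 11 was the highest TIMP2 KO female and mouse 7 the highest WT male. These mice also had the highest means of the fibroblast markers described below, 2.71 and 2.61 log2 CPM.

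Postn, which encodes periostin, ran in females from 1.09 through 1.35 to 1.81 CPM in TIMP2 KO and from 0.604 through 1.11 to 1.42 CPM in WT mice. In males it ran from 0.664 through 1.01 to 1.29 CPM in TIMP2 KO and from 0.617 through 1.04 to 1.68 CPM in WT mice. Its interaction was -0.61 (standard error 0.29, unadjusted p = 0.0405 in edgeR's test), and it lost its call in 12 of the 30 fits that left out a mouse, where it ranged from -0.69 to -0.51, the value closest to 0 being that without mouse 18 (unadjusted p = 0.0836). Lum, which encodes lumican, ran in males from 1.81 through 3.70 to 3.91 CPM in TIMP2 KO and from 3.18 through 4.23 to 4.63 CPM in WT mice. In females it ran from 3.19 through 4.48 to 5.61 CPM in TIMP2 KO and from 3.25 through 4.33 to 5.06 CPM in WT mice. Its interaction was -0.43 (standard error 0.18, unadjusted p = 0.0189), and without mouse 18, the lowest male, it was -0.30 with an unadjusted p of 0.0478. Between 2 and 6 members were called when a mouse was left out, with 6 without mouse 1, 10 or 23 and 5 without mouse 3, 4, 8 or 27. The number of all genes called, 423 over all mice, rose in those fits too, to 506 without mouse 1, 595 without mouse 10 and 522 without mouse 23, and to between 460 and 491 without mouse 3, 4, 8 or 27. Col1a2 and Lum were called in all 30 of those fits and Postn in 18.

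**Figure D2:**
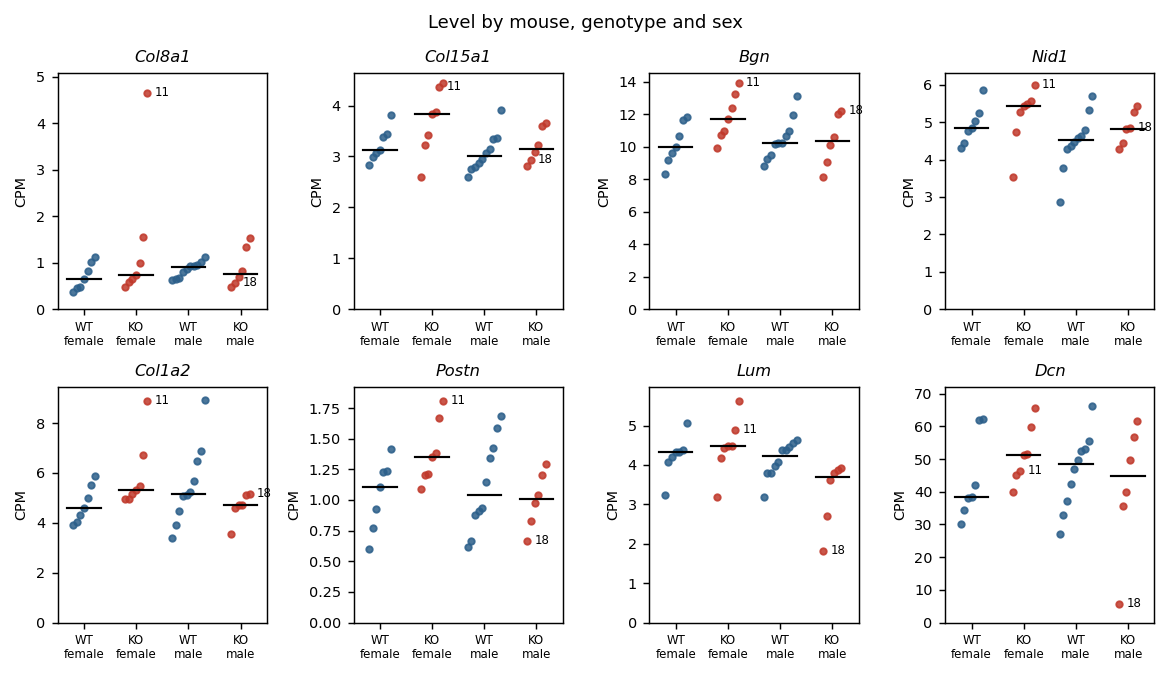
CPM (y axis, from 0) of 8 matrix genes in each mouse by genotype and sex, with 7 WT females, 7 TIMP2 KO females, 10 WT males and 6 TIMP2 KO males. Points are mice, lines are group medians, and mice 11 and 18 are numbered, at 4.65 CPM for Col8a1 and at 5.74 CPM for Dcn.

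The members also differed in how they moved with each other across the 30 mice. The study adjusted its own co-expression network for isolation or harvest date as a source of batch effects. The labels give no such date, so the correlations here are not adjusted for it and its part was not tested. Among 30 pairs named for their biology (chains of one protein, binding partners, or a member and a cell marker), 12 were correlated at an adjusted p under 0.05 (permutation test of Pearson's r of log2 CPM with 100000 resamples, 2-sided, Benjamini-Hochberg over the 30 pairs). The closest were Col4a1 with Col4a2, at r = 0.79 and Spearman's rho = 0.75 (p = 1e-05 for each, the smallest the resamples can give, adjusted p = 0.00015 for r), and Col6a1 with Col6a2, at r = 0.79 and rho = 0.74 (p = 1e-05 and 2e-05, adjusted p = 0.00015 for r). The chains of each pair assemble into one molecule. Without the 2 mice farthest from the median of the first gene, r was 0.66 and 0.71. Each pair also held within genotypes, at r = 0.80 in TIMP2 KO and 0.79 in WT mice for type IV, and at 0.83 and 0.79 for type VI.

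Both pairs are neighbours in the genome. Col6a2 lies on chromosome 10 from 76595762 to 76623630 and Col6a1 from 76708792 to 76726168, both on the minus strand. Col6a3, the third chain of the same filament, lies on another chromosome and was not correlated with Col6a1, at r = 0.10 and rho = 0.10 (permutation p = 0.600 and 0.612, adjusted p = 0.755). Col6a3 was the member at the lowest level per length, with as few as 14 counts in a mouse. Dcn (97479609 to 97518143) and Lum (97565128 to 97572703) are also neighbours, on the plus strand of chromosome 10. They were correlated at r = 0.77 and rho = 0.49 (permutation p = 0.00026 and 0.00628, adjusted p = 0.00255 for r). Without mouse 18 the r of Dcn and Lum was 0.46. Among pairs on different chromosomes some were correlated too, such as Lama5 with Lamb2 (r = 0.59) and Col5a1 with Col5a2 (r = 0.55), and others were not. What part position in the genome plays was not tested.

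Of the laminin pairs, Lama5 with Lamb2 had r = 0.59 and rho = 0.57 (permutation p = 0.00057 and 0.00122, adjusted p = 0.00342 for r), and Lamb1 with Lamc1 had r = 0.47 and rho = 0.47 (permutation p = 0.0087 and 0.0102, adjusted p = 0.0261 for r). Without the 2 farthest mice these were 0.52 and 0.36. Lama2 with Lamb2 had r = 0.44 and rho = 0.39 (permutation p = 0.0134 and 0.0338, adjusted p = 0.0367 for r and 0.0923 for rho), and r = 0.44 without the 2 farthest mice. The r of Lama2 with Lamb2 was 0.76 in TIMP2 KO mice and 0.11 in WT mice. Within TIMP2 KO and WT mice r was 0.73 and 0.46 for Lama5 with Lamb2, and 0.46 and 0.58 for Lamb1 with Lamc1. These 3 of the 4 laminin pairs passed by r over all mice. Lama4, the alpha chain of vessel laminin, had r = -0.22 and rho = -0.19 with Lamb1 (permutation p = 0.233 and 0.318, adjusted p = 0.349 for r). Nid1 had r = 0.05 with Lamc1, the chain it binds, and r = -0.00 with Col4a1 (permutation p = 0.787 and 0.994, adjusted p = 0.874 and 0.994). For the pairs with Nid1 a relation was not detectable at this number of mice.

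The type I collagen chains Col1a1 and Col1a2 had r = 0.52 and rho = 0.45 (permutation p = 0.00377 and 0.0138, adjusted p = 0.0162 for r), which was 0.38 without the 2 farthest mice, 5 and 11. Col1a1 and Dcn, both known as fibroblast genes, had r = 0.08 and rho = 0.10 (permutation p = 0.642 and 0.586, adjusted p = 0.770 for r). Dcn and Bgn, related proteoglycans, had r = -0.11 and rho = 0.08 (permutation p = 0.581 and 0.656, adjusted p = 0.755 for r), and 0.11 without mouse 18.

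The other pairs that passed were of several kinds. Col5a1 and Col5a2, the chains of type V collagen, had r = 0.55 and rho = 0.54 (permutation p = 0.0018 and 0.00254, adjusted p = 0.0090 for r), and r = 0.46 without the 2 farthest mice. Col1a1 and Col3a1 had r = 0.49 and rho = 0.53 (permutation p = 0.00708 and 0.00258, adjusted p = 0.0236 for r), and r = 0.36 without mice 5 and 11. Col1a2 and Slc6a13, a transporter of fibroblasts, had r = 0.61 and rho = 0.48 (permutation p = 0.00034 and 0.00843, adjusted p = 0.00255 for r), and r = 0.41 without mice 7 and 11. Elastic fibres hold both Fbln5 and Eln. This pair had r = 0.50 and rho = 0.49 (permutation p = 0.00445 and 0.00618, adjusted p = 0.0167 for r), and r = 0.54 without the 2 farthest mice. The transmembrane collagens Col23a1 and Col25a1 had r = 0.43 and rho = 0.37 (permutation p = 0.0180 and 0.0411, adjusted p = 0.0451 for r and 0.0980 for rho), and r = 0.28 without mice 18 and 20.

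To see which cells of the tissue the members moved with, each was correlated with the mean of 4 lists of marker genes that hold no member. Of the 168 relations, 18 had an adjusted p under 0.05 (permutation test of Pearson's r, Benjamini-Hochberg over the 168). The fibroblast markers accounted for 9, the mural cell markers for 8, the choroid plexus markers for 1 and the endothelial markers for 0, and every one of the 18 was positive. The count fell to 11 without mouse 11. The sums of the fibroblast markers were 60.4 to 119 CPM in TIMP2 KO and 58.1 to 99.7 CPM in WT mice, and 0 of the 11 tested were called between genotypes by edgeR, DESeq2 or limma voom. Of all genes these called 5.03%, 3.13% and 5.82%.

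Col1a2 followed the fibroblast markers most closely, at r = 0.83 and rho = 0.71 (permutation p = 1e-05 and 3e-05, adjusted p = 0.00084 for r), and at 0.70 without mice 7 and 11, the 2 farthest. Fbln5, an elastic fibre fibulin, followed at r = 0.74 and rho = 0.77 (permutation p = 1e-05 and 3e-05, adjusted p = 0.00084 for r). The other members with an adjusted p under 0.05 were Bgn (r = 0.68), Col1a1 (0.66), Eln (0.61), Postn (0.56), Col8a1 (0.56), Col18a1 (0.55) and Ogn (0.52). Without mice 7 and 11 the r of Col8a1 was 0.34 and that of Ogn 0.30, and their rho of 0.35 and 0.32 had adjusted p of 0.284 and 0.349 in the permutation test. Most of these members also followed the mural markers with an adjusted p under 0.05, namely Col1a2 (r = 0.64), Bgn (0.59), Col1a1 (0.54), Fbln5 (0.52), Col18a1 (0.51) and Postn (0.51). Eln was closest to the mural markers, at r = 0.67 and rho = 0.61 (permutation p = 5e-05 and 0.00043, adjusted p = 0.0021 for r). Sparc also followed the mural markers, at r = 0.51 and rho = 0.50 (permutation test, adjusted p = 0.0445 for r and 0.0617 for rho). Its r with the fibroblast markers was 0.18 (permutation test, adjusted p = 0.580). Col8a1 was the one member correlated with the choroid plexus markers, at r = 0.68 and rho = 0.31 (permutation p = 0.00057 and 0.0996, adjusted p = 0.0110 for r), and r was 0.28 without mice 5 and 11, so that this relation rested on those mice.

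Dcn, the small leucine-rich proteoglycan at the highest level, was not correlated with the fibroblast markers, at r = 0.03 and rho = 0.04 (permutation p = 0.874 and 0.816, adjusted p = 0.935 for r). Lum had r = 0.27 and rho = 0.35 (permutation p = 0.143 and 0.0573, adjusted p = 0.372 for r). Col6a1 and Col6a2 had r = -0.07 and 0.19. Levels of type I collagen, Fbln5 and Bgn thus moved with the fibroblast markers, and with the mural markers too. For Dcn, Lum, Col6a1 and Col6a2 no relation with the fibroblast markers passed the test over all mice of both genotypes.

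**Figure D3:**
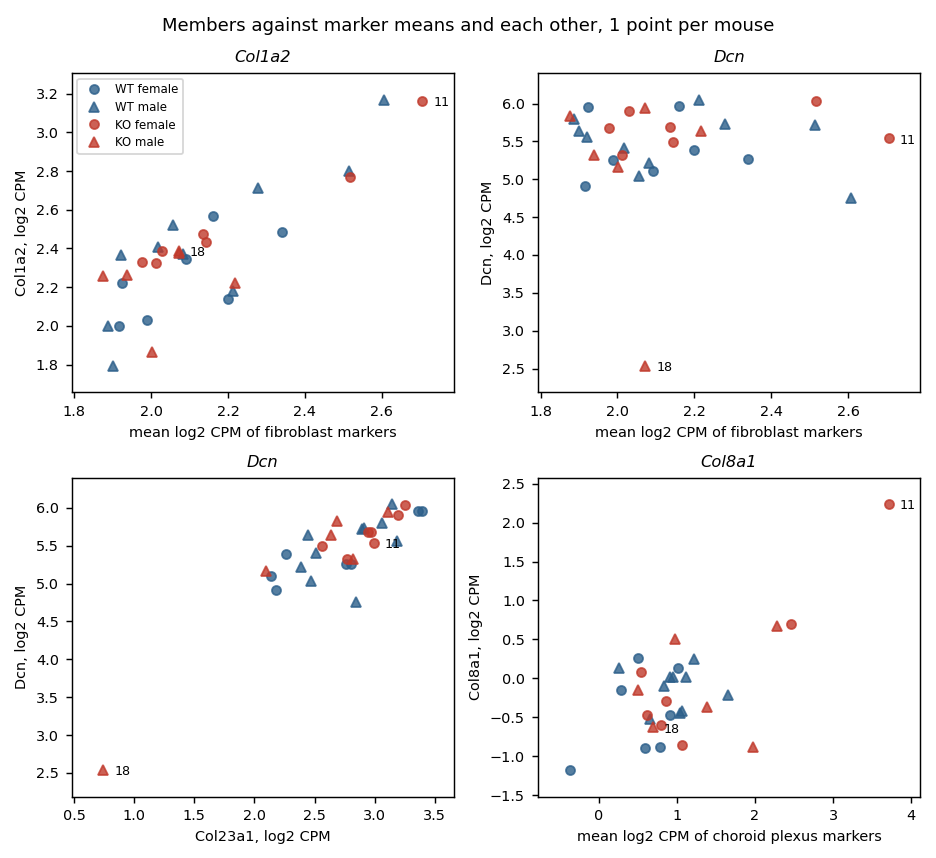
Log2 CPM of Col1a2, Dcn and Col8a1 (y axes) against the mean log2 CPM of fibroblast or choroid plexus markers, or against Col23a1 (x axes), 1 point per mouse with shape for sex and colour for genotype. Col1a2 rises with the fibroblast markers (r = 0.83) while Dcn does not (r = 0.03), and mice 11 and 18 are numbered where they stand apart.

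A tree of all 42 members, built on r after the genotype means were removed and divided at a distance of 0.6, gave 4 groups with at least 4 members. These groups are a description, since they were formed from the same values. They are not adjusted for isolation or harvest date, whose part in them was not tested. Over the 861 pairs the median r was 0.11, with 58 pairs over 0.5 and 7 under -0.5. Without mouse 18 there were 52 pairs over 0.5 and 3 under -0.5. The tightest group held Dcn, Lum, Col6a1, Col6a2, Col23a1, Col5a1 and Fbln1, with a median r of 0.68 over its 21 pairs and 0.58 without mouse 18. This group had a median r of 0.80 in TIMP2 KO mice alone (lowest 0.65) and 0.56 in WT mice alone (lowest -0.26). Its closest pair was Dcn with Col23a1, a transmembrane collagen, at r = 0.87, or 0.73 without mouse 18. The group ranged widely between mice, Col23a1 from 1.60 to 9.45 CPM in TIMP2 KO and from 4.33 to 10.5 CPM in WT mice.

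A further group held Col1a2, Bgn, Fbln5, Eln, Lama4 and Postn, with a median r of 0.51. The r of its members with the fibroblast markers had a median of 0.64, beside 0.17 in the Dcn group. In TIMP2 KO mice alone these medians were 0.65 and 0.36, and in WT mice alone 0.65 and -0.04. Another held the basement membrane genes Hspg2, Lama2, Lama3, Lama5, Lamb2 and Lamc1 with Fn1, at a median r of 0.54. Some of its levels changed with mouse number. Hspg2 was at most 4.53 CPM in mice 1 to 12 except mouse 5, and at least 4.87 CPM in mice 14 to 32 except 27 and 28. Lamc1 ran from 20.0 to 26.6 CPM in mice 1 to 12 and from 23.7 to 31.7 CPM in mice 14 to 32. Lama3 ran from 2.51 to 5.28 and from 2.88 to 4.33 CPM. What the mouse number stands for is not given, and its part was not tested. The last group held Col4a1, Col4a2 and Agrn with the fibrillar collagen Col11a1, at a median r of 0.56, or 0.38 without mouse 18. Col11a1 ran against the Dcn group, at r = -0.69 with Dcn, and mouse 18 had the highest Col11a1 (8.79 CPM) and the lowest Dcn. The other 18 members fell into groups of 1 or 2.

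**Figure D4:**
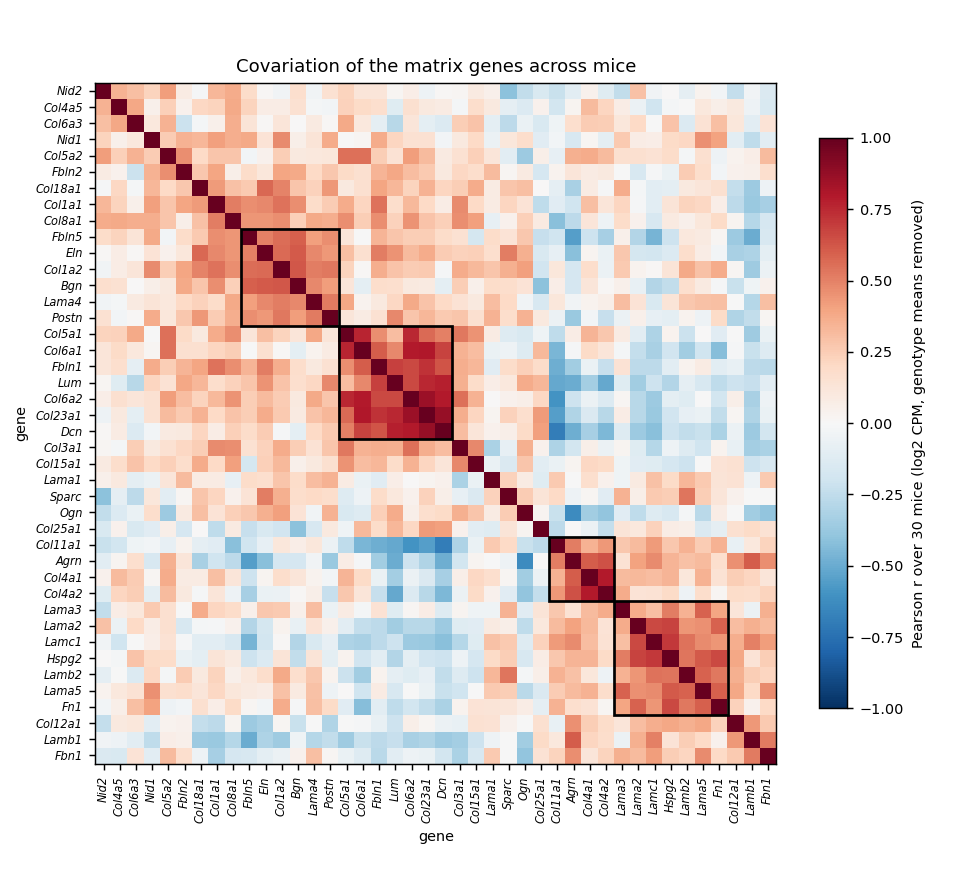
Pearson's r over 30 mice between each pair of the 42 matrix genes (log2 CPM, genotype means removed), ordered by average linkage, with red for positive and blue for negative values. Black frames mark the 4 groups with at least 4 members, of which the one with Dcn, Col23a1 and type VI collagen is the most strongly red, with a median r of 0.68.

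The genes outside the list that moved most like the members differed between the groups. Those closest to the mean of Col1a1, Col1a2 and Col3a1 were Fmod (r = 0.74), Slc6a13 (0.73), Prg4 (0.72), Wfikkn2 (0.71), Slc22a8 (0.71), Spp1 (0.70), Slc13a4 (0.69), Mgp (0.67), Pcolce (0.67) and Abca4 (0.67). Without mouse 11 the r of these genes lay between 0.53 (Abca4) and 0.67 (Fmod). Slc6a13 and Mgp are among the fibroblast markers, and Pcolce encodes a protein that helps to process procollagen. Those closest to the mean of Col4a1 and Col4a2 were Pnisr (r = 0.77), Abcc5 (0.76), A330023F24Rik (0.76), Ttc14 (0.74), Man2c1 (0.74), Leng8 (0.73), Gm14137 (0.73), Rbm33 (0.73), Mir124a-1hg (0.73) and Nvl (0.71). Without mouse 18 their r lay between 0.64 (Mir124a-1hg) and 0.76 (Ttc14). None of these genes is in the lists of endothelial or mural markers. Col4a1 with the mean of the endothelial markers, the closest of its 4 lists, had r = 0.41 and rho = 0.48 (permutation p = 0.0243 and 0.00735, adjusted p = 0.146 and 0.0761). With the single gene Cldn5, the endothelial claudin, Col4a1 had r = -0.03 and rho = 0.05 (permutation p = 0.890 and 0.775, adjusted p = 0.921 for r), and r = 0.25 without mouse 18.

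Those closest to Dcn, a search made after its values were seen, were Fxyd6 (r = 0.95), Grp (0.94), Cadm1 (0.94), Dlk1 (0.94), Sstr1 (0.93), Trhr (0.93), Rxrg (0.92), Gap43 (0.92), AW551984 (0.91) and Zcchc12 (0.91). Grp encodes a neuropeptide, Sstr1 and Trhr encode receptors for neuropeptides, and Gap43 encodes a protein of growing axons. Without mouse 18 the r with Dcn was 0.89 for Fxyd6, 0.82 for Grp and 0.88 for Dlk1. The 9 hippocampal neuron markers differed in their r with Dcn. It was negative for Rbfox3, the pan-neuronal marker NeuN (-0.67), Dsp (-0.54), Zbtb20 (-0.46), Wfs1 (-0.46), Neurod6 (-0.44) and Prox1 (-0.25), and near 0 for C1ql2 (0.09), Grik4 (0.09) and Fibcd1 (0.09). Dsp, Prox1 and C1ql2 all mark dentate granule cells. Without mouse 18 the r with Dcn was -0.62 for Dsp, -0.55 for Rbfox3, -0.52 for Prox1, 0.07 for Wfs1 and 0.41 for Fibcd1. It was then -0.36 for Zbtb20, -0.30 for Neurod6, -0.19 for C1ql2 and -0.18 for Grik4. How much of each hippocampal region a dissection held was not measured, and its part in these values was not tested.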

How the data were processed

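Hippocampal RNA of 30 mice (13 TIMP2 KO and 17 WT) was sequenced. The deposited values were raw counts of reads per gene, made by the authors with Trimmomatic 0.36, STAR 2.5.2b and featureCounts of Subread 1.5.2, on GRCm38. The strand setting of the counting and the annotation release are not given in the sources used here. Of the gene identifiers, 49056 were found in GENCODE M21, which gave positions and exonic lengths, and 259 were not.

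The counts were tested with edgeR 4.0.16 (R 4.3.3): TMM factors, filterByExpr, a quasi-likelihood fit of genotype on 30 mice, and Benjamini-Hochberg adjustment over 16486 genes. DEGs are genes with an unadjusted p under 0.05. The interaction used a fit of genotype, sex and their product. Log2 CPM had a prior count of 2. Correlations were tested with 100000 permutations in numpy 2.4.6, and scipy 1.17.1 gave the ranks and the tree of members. Alternatives used DESeq2 1.42.0, limma 3.58.1 (voom with sample weights), other filters, scalings and covariates, each sex alone, and each mouse left out. The script of the fits was tested on simulated data.

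The members and lists were chosen with earlier results of these data known. Members named with full values were the 5 with the smallest p and the member of each role at the highest level per length, with others added where a comparison or a mouse singled them out. Of other genes, those called in the matrix lists and the 10 most correlated with the mean of Col1a1, Col1a2 and Col3a1 and with that of Col4a1 and Col4a2 were named. Members of the interaction and of the pairs were named where they passed its threshold, and pairs that did not pass were named for their biology. Each library is 1 mouse and totals ran from 18345517 to 41081083 counts, so Col8a1 and the other lowest members rest on few reads. Windows before starts came from RefSeq (GRCm38.p6).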

Additional observations from a re-analysis of the deposited data

Results flagged for a closer look

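Each member was examined for a mouse that stood apart from its own sex and genotype, in 168 groups of 6 to 10 mice by Dixon's test at 95%. There were 11 such values, where chance gives about 1 in 20 groups, or 8.4.

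Among TIMP2 KO mice, Col8a1 was 4.65 CPM in mouse 11 (female), where the other females lay between 0.479 and 1.55 CPM. Fbn1 was 13.3 CPM in mouse 30 (female), beside 8.24 to 9.90 CPM. In males, Col11a1 was 8.79 CPM in mouse 18, beside 1.98 to 4.17 CPM, Eln was 8.55 CPM in mouse 1, beside 4.25 to 5.26 CPM, and Col6a3 was 1.88 CPM in mouse 15, beside 1.29 to 1.51 CPM. The single low value was Col1a2 at 3.57 CPM in mouse 20, a male, beside 4.60 to 5.16 CPM.

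Among WT mice, Col3a1 was 4.38 CPM in mouse 16 (female), beside 1.24 to 1.86 CPM in the other females. Mouse 23, also female, had 9.51 CPM of Lama5, beside 6.06 to 7.28 CPM. Mouse 7, a male, had 5.67 CPM of Col11a1, beside 1.78 to 3.72 CPM, and 5.28 CPM of Lama3, beside 2.51 to 3.96 CPM. Mouse 32, a male, had 92.0 CPM of Col25a1, beside 73.3 to 82.4 CPM.

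The difference between TIMP2 KO and WT was unlike in males and females, by the interaction at an unadjusted p under 0.05, for Col1a2 (male minus female log2 fold change -0.58), Lum (-0.43) and Postn (-0.61). The adjusted p was 1.00 for each in edgeR's quasi-likelihood test.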

How the results depend on the processing

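The count of members with an unadjusted p under 0.05 was 1 with RLE size factors, without a filter and with sex as a covariate. It was 0 with DESeq2, limma voom, log2 total counts as a covariate or a minimum of 10 counts in every mouse (which removes Col8a1 from the test), 2 with the choroid plexus mean as a covariate, 4 in females alone and 2 in males alone, where 4.40%, 5.02% and 3.25% of all genes were called. With each mouse left out it ranged from 0 to 3, and in the interaction from 2 to 6. No member had an adjusted p under 0.05 in any of these edgeR, DESeq2 or limma fits. Of the 42 members, 19 were higher in TIMP2 KO over all mice and 26 in females alone. In males alone 14 were higher, and with the choroid plexus mean as a covariate 14. Signs were followed only for members with the smallest p or the highest level per length in their role. Among these, signs turned for Col5a1 (0.0043 with voom, 0.10 in females), Col4a2 (0.0039 with the choroid plexus mean, 0.015 in males), Col6a1 (-0.034 and -0.072), Dcn (-0.0087 and -0.16), Col8a1 (-0.11 with the choroid plexus mean), Agrn (-0.0064 with voom) and Bgn (-0.021 in males). The cause was not tested. With each mouse left out, log2 fold changes ranged from -0.10 to 0.011 for Col5a1, -0.038 to 0.0069 for Col4a2, -0.039 to 0.13 for Col6a1, -0.014 to 0.022 for Agrn, -0.0053 to 0.15 for Dcn and 0.12 to 0.68 for Col8a1. Of the 30 pairs, 12 passed over all mice, 6 in TIMP2 KO alone, 2 in WT alone (fewer mice) and 5 without the 2 farthest mice. Of the 168 relations with marker means, 18 passed, and 11 without mouse 11. The fits of the interaction with each mouse left out and the values without mouse 18 were chosen after seeing the data. No paired analysis was possible because the labels give no number shared between the genotypes.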

Other observations

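Of the other lists read between TIMP2 KO and WT at an unadjusted p under 0.05 in edgeR's test, 1 of 15 endothelial markers was lower (Slco1a4), 0 of 10 mural, 0 of 5 oligodendrocyte, 0 of 5 microglia and 0 of 4 red blood cell markers were called, 1 of 5 astrocyte markers was higher (Gfap), and 2 of 9 hippocampal neuron markers were lower (Dsp and Prox1). DESeq2 and limma voom gave the same number in each of these lists. Over all genes tested in edgeR, 2.47% were called higher and 2.56% lower in TIMP2 KO. The markers of these lists with an adjusted p under 0.05 numbered 0.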
